A study of Mus musculus with 2 samples.

Results

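Glucose carriers, lactate carriers, the chaperone that takes those carriers to the membrane, and both common subunits of lactate dehydrogenase were followed in dissociated mouse retina by droplet-based scRNA-Seq. The 9 genes were fixed as a list of symbols, were found by symbol among the 32285 genes of the count tables, and all had UMIs in both libraries. They are the glucose carriers *Slc2a1* (GLUT1) and *Slc2a3* (GLUT3), the monocarboxylate carriers *Slc16a1* (MCT1), *Slc16a3* (MCT4), *Slc16a7* (MCT2) and *Slc16a8* (MCT3), the chaperone *Bsg* (basigin), and the subunit genes *Ldha* and *Ldhb*. One library came from a WT retina (replicate 1) and one from an ND6 retina (replicate 1), each from male C57BL/6J mice aged 7 months. ND6 mice carry a missense mutation in the mitochondrial gene for a subunit of complex I, derive from an embryonic stem cell fusion, and pass the mutation on through the mother, the sires being WT. The mutation is inherited through mtDNA and not driven by a promoter or a Cre line, and the sources used here do not give how many animals went into each library. With 1 library per group there is no replicate error, so no test was made, every interval covers counting error only, and each ND6 value set beside a WT value compares a pair of libraries and not the conditions.

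Photoreceptors take up large amounts of glucose and turn much of it into lactate even when oxygen is present. Glucose reaches them from the choroid through the retinal pigment epithelium (RPE), a cell layer behind the photoreceptors that carries GLUT1 on its faces, and lactate leaves through MCT carriers of the photoreceptors, the Müller glia, and the RPE. MCT3 is known from the basal face of the RPE, MCT1 from its apical face and from photoreceptors, and MCT2 has a high affinity for its substrates and is found in neurons. MCT1, MCT3, and MCT4 need basigin to reach the membrane. Lactate dehydrogenase is a tetramer, and tetramers rich in the LDHA subunit are associated with lactate production while those rich in LDHB are associated with lactate use.

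Of the 7 retinal classes described, *Ldha* was highest in rod-like cells of both libraries, and *Slc2a1*, *Slc16a1*, *Slc16a8*, *Bsg*, and *Ldhb* were highest in RPE-like cells. RefSeq upstream sequences of *Ldha*, *Ldhb*, *Slc16a8*, *Slc2a1*, and *Slc16a1* are therefore shown first, for GRCm38.p6, which is the mm10 build of the files. Each is the window of 250 bases before a RefSeq start, without bases that lie in an annotated exon (34 for *Slc2a1* and 13 for *Slc16a8*). Capitals mark matches to any of 4 short motifs searched on both strands: CACGTG (an E-box), CATGTG (an E-box form bound by MITF), ACGTG (the core of the hypoxia response element), and TAATCC (bound by OTX2 and CRX).
Ldha upstream start, chr7:46845554-46845803, plus strand: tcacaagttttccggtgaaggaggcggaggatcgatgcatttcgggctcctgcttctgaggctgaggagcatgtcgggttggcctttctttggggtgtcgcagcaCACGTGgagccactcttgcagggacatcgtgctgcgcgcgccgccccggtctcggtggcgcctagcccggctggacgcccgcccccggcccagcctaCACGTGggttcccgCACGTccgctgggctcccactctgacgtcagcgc
Ldha downstream start, chr7:46846832-46847081, plus strand: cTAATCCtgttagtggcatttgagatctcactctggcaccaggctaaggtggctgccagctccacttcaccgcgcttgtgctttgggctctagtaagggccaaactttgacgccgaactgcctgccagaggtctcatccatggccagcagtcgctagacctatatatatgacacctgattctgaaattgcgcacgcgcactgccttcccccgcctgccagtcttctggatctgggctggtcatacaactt
Ldhb, chr6:142507958-142508207, minus strand: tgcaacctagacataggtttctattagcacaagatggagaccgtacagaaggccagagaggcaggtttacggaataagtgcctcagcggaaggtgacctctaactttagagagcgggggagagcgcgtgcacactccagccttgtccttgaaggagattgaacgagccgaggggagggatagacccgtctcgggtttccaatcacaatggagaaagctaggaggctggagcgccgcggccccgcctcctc
Slc16a8, chr15:79254762-79254998, minus strand: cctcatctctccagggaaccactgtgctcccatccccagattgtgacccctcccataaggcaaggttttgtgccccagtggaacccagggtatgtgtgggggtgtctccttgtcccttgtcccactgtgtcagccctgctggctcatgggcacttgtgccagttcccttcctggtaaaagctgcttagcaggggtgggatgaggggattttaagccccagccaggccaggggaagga
Slc2a1, chr4:119108495-119108710, plus strand: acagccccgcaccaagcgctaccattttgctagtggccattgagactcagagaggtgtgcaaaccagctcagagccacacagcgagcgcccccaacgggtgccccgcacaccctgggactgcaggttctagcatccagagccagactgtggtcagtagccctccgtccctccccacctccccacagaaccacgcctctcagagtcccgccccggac
Slc16a1, chr3:104638414-104638663, plus strand: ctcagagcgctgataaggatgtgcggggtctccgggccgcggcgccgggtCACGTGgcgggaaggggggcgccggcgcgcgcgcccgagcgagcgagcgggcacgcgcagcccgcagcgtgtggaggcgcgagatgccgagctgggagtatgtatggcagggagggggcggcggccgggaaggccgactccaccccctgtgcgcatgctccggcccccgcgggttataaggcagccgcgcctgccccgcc

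Both RefSeq starts of *Ldha* lie inside the gene span of the GENCODE annotation given below, and the bases that follow the downstream start, but not those that follow the upstream one, were found in a GENCODE transcript of the gene. CACGTG occurred 2 times before the upstream *Ldha* start and 1 time before *Slc16a1*, and 6.02% of the 32851 windows of the same length hold it. ACGTG, which also lies inside CACGTG on each strand, was counted 5 times before the upstream *Ldha* start and 2 times before *Slc16a1*, and 16.6% of windows hold it. The bases shown for *Ldhb*, *Slc16a8*, and *Slc2a1* held none of the 4 motifs. The downstream *Ldha* window held 1 TAATCC, a motif found in 6.25% of windows, while CATGTG is found in 12.3% and in none of the sequences shown. A match says only that these letters are present.

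In the GENCODE M21 annotation of mm10, the 9 genes are protein coding and lie on 7 chromosomes. *Slc2a1* (ENSMUSG00000028645) spans chr4:119108711-119137983 on the plus strand and *Slc2a3* (ENSMUSG00000003153) spans chr6:122727809-122801640 on the minus strand. *Slc16a1* spans chr3:104638668-104658462, *Slc16a3* chr11:120948480-120960868, *Slc16a7* chr10:125219270-125389465, and *Slc16a8* chr15:79251014-79254761. *Bsg* spans chr10:79704491-79711969, *Ldha* chr7:46841475-46855627, and *Ldhb* chr6:142490249-142507957. *Slc2a1*, *Slc2a3*, and *Slc16a1* overlap other annotated genes on the same strand, so reads in those overlaps could belong to either gene, and their levels are uncertain to that extent. The 2 annotated pseudogenes named after *Ldha* are not among the genes counted.

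The tables hold 77958836 UMIs (WT) and 80358255 UMIs (ND6), of which 12529 WT and 18395 ND6 barcodes passed the limits for cells, with median UMIs per cell of 1878 and 1416. The libraries share 59 of these barcodes, 0.471% of the WT and 0.321% of the ND6 cells. Levels are given as CPM, the UMIs of a gene per 1e+06 UMIs of a class of cells, and are compared between classes and not between genes. Cells were grouped without the 9 genes, so that no level below was used to form the groups. The groups comprised rod-like cells (9829 WT, 13410 ND6), cone-like cells (615, 1123), Müller-like cells (37, 94), RPE-like cells (323, 948), bipolar-like cells (231, 634), amacrine-like cells (78, 303), and microglia/macrophage-like cells (253, 139). Blood cells (248, 525) and a cluster led by *Bc1*, *Nefl*, and *Glul* (915, 1219), which could not be named, were counted only in totals and among other cells. No cluster could be named horizontal, ganglion, or endothelial. The amacrine-like cluster had 8 amacrine markers raised, but also 7 ganglion and 4 horizontal ones. Its ganglion markers summed to 1814 CPM in WT and 764 CPM in ND6, beside 2583 and 2090 CPM for amacrine markers. Of 8 RPE markers, *Best1* had no UMI in either RPE-like sum, and the other 7 were raised.

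Rod RNA was present in every class, and more of it in some ND6 classes. The level of 8 rod markers, as a percentage of their level in rod-like cells, was 37.9% (WT) and 48.4% (ND6) in RPE-like cells, 58.8% and 52.2% in Müller-like cells, 42.1% and 44.0% in bipolar-like cells, and 23.2% and 36.2% in amacrine-like cells. It was 79.9% and 83.6% in cone-like cells, the highest of these classes, and 44.8% and 47.1% in microglia/macrophage-like cells. Values after subtraction of that share of the rod-like profile, an alternative chosen after the data were seen, are given beside the results they touch. Müller-like cells also differed in depth, with a median of 10329 UMIs per cell in WT and 1662 in ND6.

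**Figure D1:**
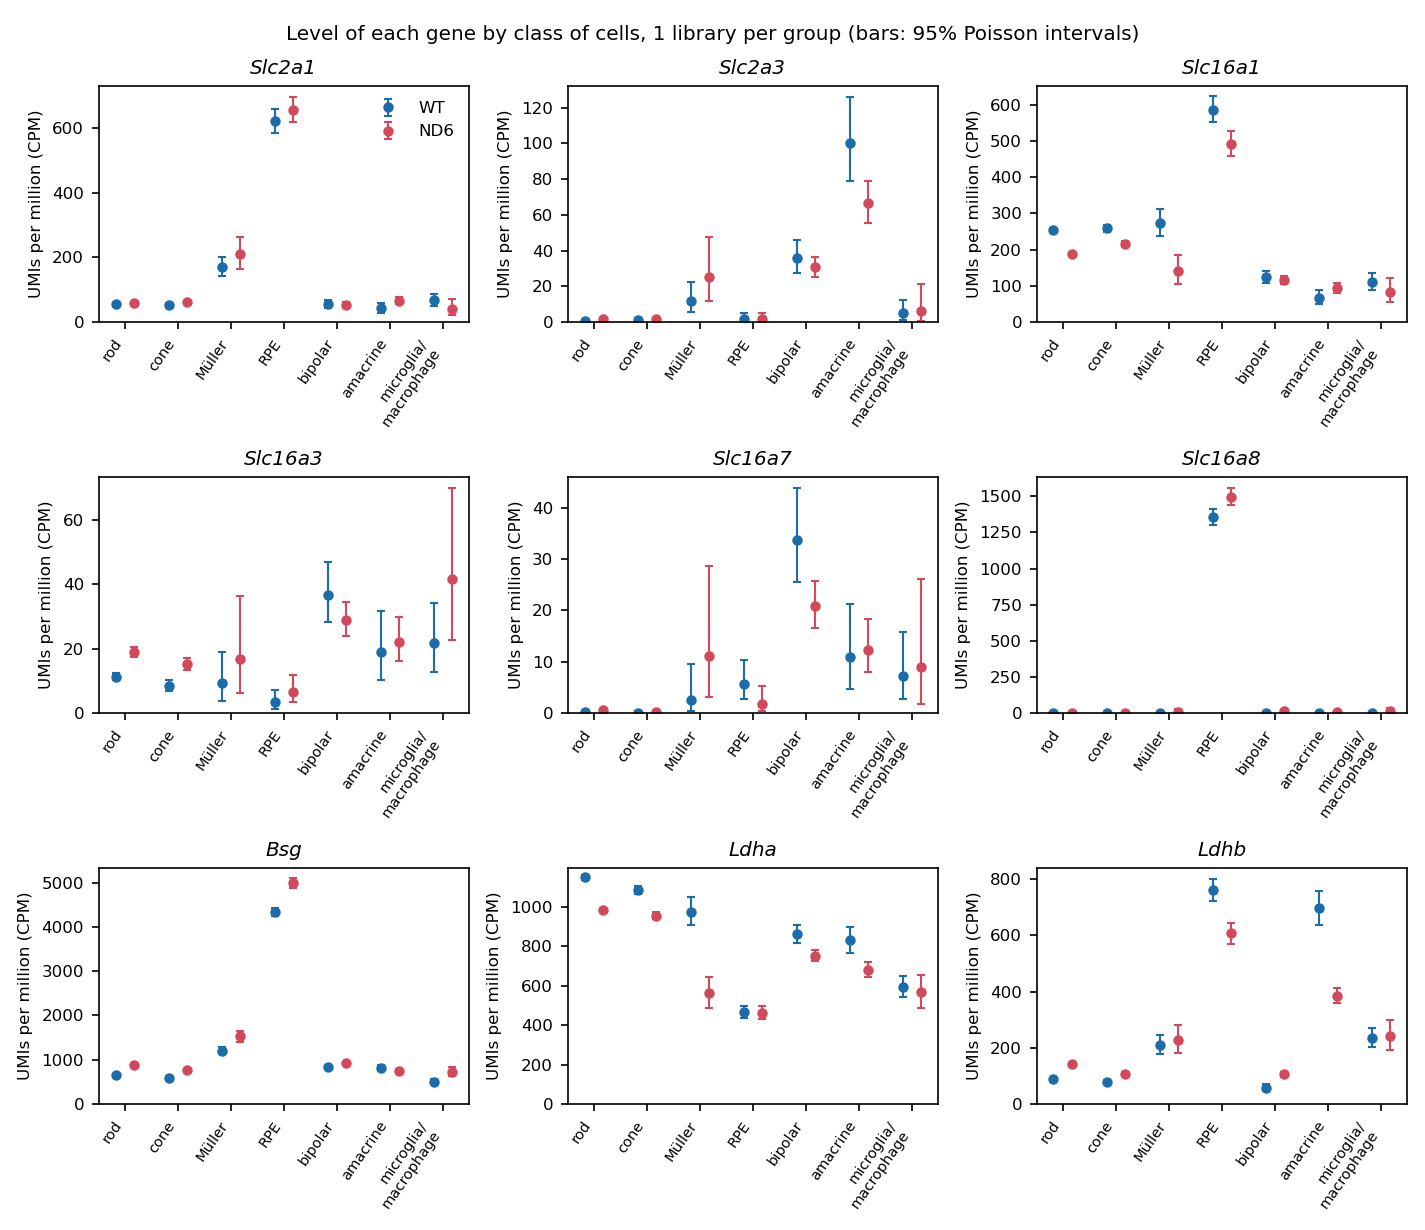
Level of each gene as CPM, the UMIs of the gene per 1e+06 UMIs of the class (linear axes from 0), by class of cells, for the WT library (blue) and the ND6 library (red), with 95% Poisson intervals. *Slc16a8* stands near 0 outside RPE-like cells, *Slc2a3* is highest in amacrine-like cells, and *Ldha* is lowest in RPE-like cells.

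The glucose carriers divided between the classes. *Slc2a1*, the main carrier of the blood-retina barriers, was highest in RPE-like cells, at 621 CPM in WT (95% Poisson interval 585 to 659) and 655 CPM in ND6 (617 to 695). Müller-like cells came next at 170 CPM (142 to 202) and 210 CPM (165 to 263). The sum of 7 endothelial markers was 617 and 868 CPM in these cells, against 8.01 and 20.4 CPM in rod-like cells. The part of endothelial RNA in the Müller-like level was not tested. All other classes lay between 41.7 and 67.4 CPM in both libraries, and their intervals overlapped from each class to the next. RPE-like cells thus stood 10.9-fold above all other cells of the WT library and 10.7-fold above those of the ND6 library. At an equal depth of 400 UMIs, a *Slc2a1* UMI would be seen in 18.6% of WT and 24.4% of ND6 RPE-like cells, against 2.10% and 2.45% of rod-like cells. The Müller-like level rested on only 129 and 75 UMIs, and with coarser clusters the ND6 Müller-like excess disappeared (log2 −0.04 against other cells). The coarser Müller-like class held 933 ND6 cells, not 94.

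*Slc2a3*, the carrier of high affinity found in neurons, was highest in amacrine-like cells, at 100.2 CPM (78.7 to 126) in WT and 66.5 CPM (55.5 to 79.1) in ND6. Bipolar-like cells held 35.6 CPM (27.2 to 45.8) and 30.6 CPM (25.5 to 36.4). Rod-like cells held 0.812 and 1.89 CPM, from 29 and 67 UMIs, and RPE-like cells 3 UMIs in each library. Amacrine-like cells were 43.5-fold above all other cells in WT and 16.2-fold in ND6. Ganglion and horizontal markers were also raised in that cluster (above), and their part in its levels was not tested.

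Among the monocarboxylate carriers, *Slc16a8* was nearly restricted to RPE-like cells, which held 2433 of the 2544 WT UMIs and 2491 of the 2699 ND6 UMIs, a level 644-fold (533 to 787) and 441-fold (383 to 510) above other cells. Its level there was 1357 CPM (1303 to 1412) in WT and 1496 CPM (1438 to 1556) in ND6. A UMI was seen in 69.0% of WT and 75.5% of ND6 RPE-like cells (median 2591 and 1097.5 UMIs per cell), and in 0.722% and 0.477% of rod-like cells (median 1786 and 1348), which are not known to make MCT3. In barcodes of 10 to 100 UMIs, which hold mostly free RNA, *Slc16a8* stood at 48.6 and 25.7 CPM, above its level in every class other than RPE-like.

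*Slc16a1* was highest in RPE-like cells, with 587 CPM (552 to 624) in WT and 493 CPM (460 to 528) in ND6. Rod-like cells held 255 and 189 CPM and cone-like cells 259 and 216 CPM. The rod RNA in cone-like cells would bring 78.4% and 73.1% of their level. Müller-like cells held 274 and 140 CPM, of which the rod RNA in them would bring 54.7% and 70.5%. Inner neurons held the least of the retinal neurons, with 124 and 116 CPM in bipolar-like and 66.3 and 92.8 CPM in amacrine-like cells. Much of the inner neuron level equalled what the rod RNA in those cells would bring, 86.9% in WT and 72.4% in ND6, whereas in RPE-like cells that share was 16.5% and 18.5%.

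*Slc16a7* marked bipolar-like cells, at 33.8 CPM (25.6 to 43.8) in WT and 20.8 CPM (16.6 to 25.7) in ND6. These cells gave 57 of the 88 WT UMIs and 85 of the 147 ND6 UMIs of the gene. Amacrine-like cells held 10.8 CPM (4.68 to 21.3) and 12.4 CPM (7.93 to 18.4), and in ND6 this interval overlaps that of bipolar-like cells. Rod-like cells held 5 and 19 UMIs in all, and WT cone-like cells held 0, where 3 UMIs would correspond to 0.285 CPM. In WT RPE-like cells, the 10 UMIs of *Slc16a7* came from 3 cells.

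*Slc16a3*, a carrier suited to lactate export, was low everywhere. It was highest in bipolar-like cells of WT, at 36.8 CPM (28.2 to 47.2), and in microglia/macrophage-like cells of ND6, at 41.7 CPM (22.8 to 70.0, from 14 UMIs). Bipolar-like cells of ND6 held 28.9 CPM (23.9 to 34.6), an interval that overlaps the former. RPE-like cells held only 6 and 11 UMIs, and the rod RNA in them would bring all of these.

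*Bsg*, whose protein escorts the carriers to the membrane, was highest in RPE-like cells. Its level was 4340 CPM (4244 to 4437) in WT and 4990 CPM (4883 to 5098) in ND6 RPE-like cells, 6.52-fold and 5.94-fold above other cells. Müller-like cells held 1209 and 1526 CPM, and the part of the endothelial RNA in them (above) was not tested. The other classes lay between 507 and 918 CPM in both libraries. After subtraction of the rod-like profile, RPE-like cells stood at 6591 and 8848 CPM.

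The subunit genes of lactate dehydrogenase were highest in different classes. *Ldha* was highest in rod-like cells, with 1149 CPM (1137 to 1160) in WT and 985 CPM (975 to 996) in ND6, and lowest in RPE-like cells, with 466 CPM (435 to 499) and 461 CPM (429 to 495). In ND6, the RPE-like interval of *Ldha* overlapped that of Müller-like cells (488 to 646). *Ldhb* was highest in RPE-like cells, with 760 CPM (720 to 801) and 607 CPM (570 to 645), and stood at 89.3 and 143 CPM in rod-like cells. Amacrine-like cells were next for *Ldhb*, with 696 CPM (637 to 759) and 385 CPM (358 to 414), and the WT interval overlapped that of RPE-like cells. *Ldhb* was lowest in bipolar-like cells, the other inner neurons, at 58.1 and 105 CPM, and the ND6 interval there overlapped that of cone-like cells. The *Ldha* excess of rod-like over cone-like cells was small, and with finer clusters or no limit on mtDNA-encoded UMIs the WT maximum moved to cone-like cells.

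As a share of *Ldha* and *Ldhb* UMIs together, *Ldha* made up 92.8% (92.5 to 93.0, Clopper-Pearson) in WT and 87.4% (87.0 to 87.7) in ND6 rod-like cells. Cone-like cells had 93.2% and 89.9%, and bipolar-like cells 93.7% and 87.7%. The rod RNA in cone-like cells would bring 84.5% and 86.2% of their *Ldha* level. It would also bring 90.6% and 100% of their *Ldhb* level. Amacrine-like cells had 54.4% (51.4 to 57.3) and 63.8% (61.7 to 65.9). RPE-like cells had 38.0% (36.0 to 40.1) and 43.2% (40.9 to 45.5), the lowest share of any class in either library. Because this is a ratio within a class, the total UMIs of the class do not enter it.

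The *Ldha* found in RPE-like cells was close to what rod RNA alone would bring. The rod RNA measured there would give 93.5% of the WT *Ldha* UMIs and 100% of the ND6 *Ldha* UMIs, but only 4.46% and 11.4% of the *Ldhb* UMIs. Subtraction left an *Ldha* share of 4.01% in WT and 0% in ND6. Leaving out the 10% of cells with the highest doublet scores in each library, which are not shown to be doublets, also lowered the share. It took 14.9% of the WT and 29.4% of the ND6 RPE-like cells. In the 275 WT and 669 ND6 RPE-like cells that remained, the rod marker level was 18.4% and 20.6%, the *Ldha* level was 228 and 193 CPM, and the *Ldha* share was 19.0% and 18.9%. In Müller-like cells, the share was 82.3% and 71.3% as counted and 65.7% and 24.0% after subtraction of the rod-like profile, from 37 and 94 cells, but 60.0% and 63.9% after subtraction of free RNA, which turns the order of the libraries. In amacrine-like cells, subtraction left 45.5% and 49.2%, and in bipolar-like cells 94.8% and 88.2%.

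**Figure D2:**
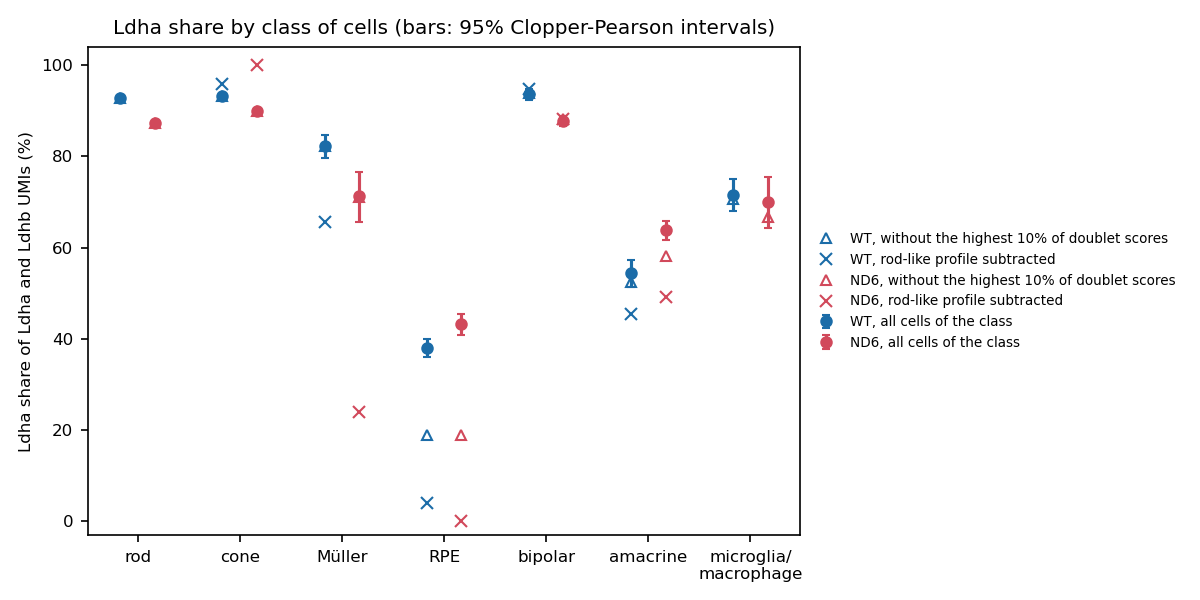
*Ldha* share of *Ldha* and *Ldhb* UMIs (vertical axis, %) by class for WT (blue) and ND6 (red), as counted (filled, with 95% Clopper-Pearson intervals), without the highest 10% of doublet scores (triangles), and after subtraction of the rod-like profile (crosses, not drawn for rod-like and microglia/macrophage-like cells). RPE-like cells go from 38.0% and 43.2% to 4.01% and 0%, while bipolar-like cells stand at 94.8% and 88.2% after subtraction.

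Rod-like cells were not uniform for these genes. They formed 7 clusters, of which 4 had less than 1% of their UMIs from *Malat1*, a nuclear noncoding RNA, in both libraries. These 4 held 5884 WT and 9085 ND6 cells, 59.9% and 67.7% of the rod-like cells. The division at 1% was made after the values were seen. Summed over the *Malat1*-poor clusters, *Ldha* stood at 915 CPM in WT and 829 CPM in ND6, against 1231 and 1074 CPM in the 3 *Malat1*-rich clusters. *Ldhb* went the other way, with 127 and 189 CPM against 76.1 and 116 CPM, and so did *Bsg*, with 998 and 1178 CPM against 538 and 698 CPM. The *Ldha* share was 87.8% (87.2 to 88.5) and 81.4% (80.7 to 82.1) in *Malat1*-poor and 94.2% (93.9 to 94.4) and 90.2% (89.9 to 90.6) in *Malat1*-rich rods. The *Malat1*-poor clusters also carried more mtDNA-encoded UMIs, 12.6% to 14.1% in WT against 5.77% to 10.4%, and the part of this in the difference was not tested. One WT cluster of 210 cells with 0.606% *Malat1* was an exception, with 1101 CPM of *Ldha* and a share of 93.1%.

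**Figure D3:**
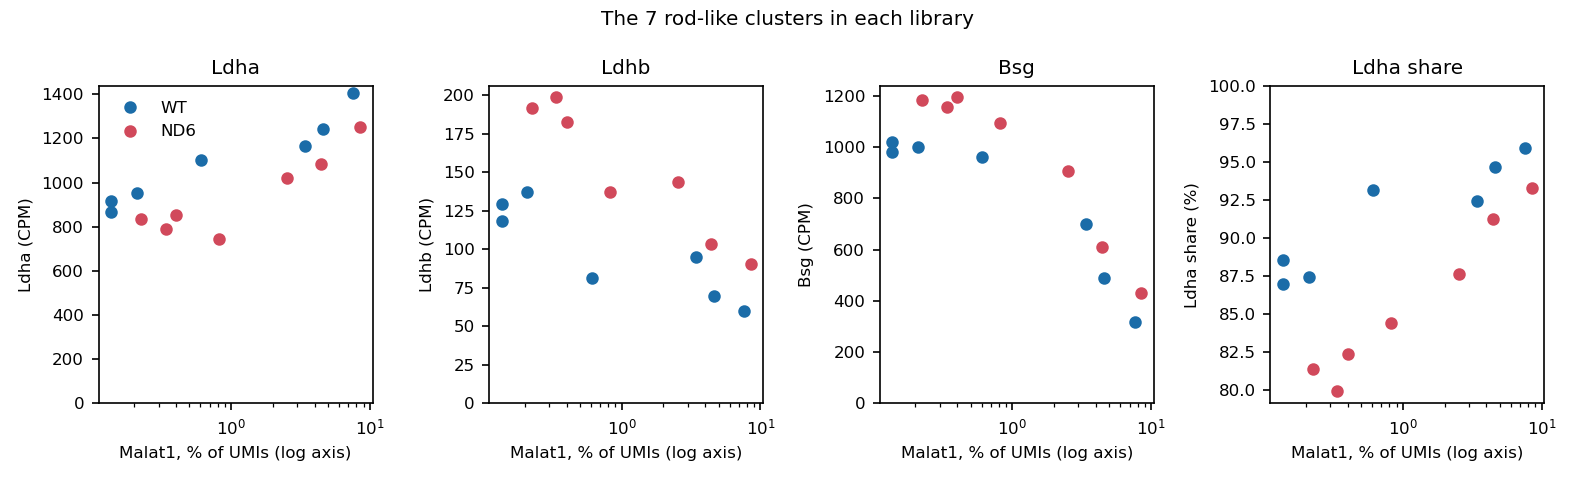
The 7 rod-like clusters of each library (WT blue, ND6 red), by the percentage of their UMIs from *Malat1* (horizontal, log axis), against the CPM of *Ldha*, *Ldhb*, and *Bsg* and the *Ldha* share in % (vertical, with the share axis not starting at 0). *Malat1*-rich clusters have more *Ldha* and less *Ldhb* and *Bsg*, and ND6 points lie above WT points for *Bsg* and below them for the share over most of the range.

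Against all other cells of its library, each class was also described by how many of the 9 genes stood at least 2-fold higher. In RPE-like cells these were 6 in WT (*Slc2a1*, *Slc16a1*, *Slc16a7*, *Slc16a8*, *Bsg*, *Ldhb*) and 5 in ND6 (the same without *Slc16a7*), where 16.3% and 13.4% of all 15888 genes passed. At least 2-fold lower were *Slc2a3*, *Slc16a3*, and *Ldha* in both libraries, where 27.6% and 22.7% of genes passed. Inner neuron-like cells had 4 in WT (*Slc2a3*, *Slc16a3*, *Slc16a7*, *Ldhb*) and 2 in ND6 (*Slc2a3*, *Slc16a7*), with 25.3% and 26.9% of all genes. Müller-like cells had 2 and 3, with 28% and 33.7% of all genes, and photoreceptor-like cells had 0 in both, with 4.16% and 1.68%. At least 2-fold lower in photoreceptor-like cells were 6 in WT (*Slc2a1*, *Slc2a3*, *Slc16a7*, *Slc16a8*, *Bsg*, *Ldhb*) and 4 in ND6 (the same without *Bsg* and *Ldhb*), with 29.6% and 28.8% of all genes.

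When all cells were summed, 2 of the 9 genes were at least 1.5-fold higher in ND6, where 18.6% of 15888 genes were, and 0 were at least 1.5-fold lower, where 7% of genes were. *Slc2a3* went from 3.63 to 6.04 CPM, a log2 ratio of 0.73 (0.48 to 0.99, exact conditional interval), and *Slc16a3* from 11.4 to 18.6 CPM, a ratio of 0.71 (0.57 to 0.85). Without the highest doublet scores the ratio of *Slc2a3* was 0.54, under 1.5-fold. The median of the 9 ratios was 0.27, beside 0.07 over all genes. Inner neuron-like cells, in which *Slc2a3* is highest, made up 2.47% of WT and 5.09% of ND6 cells, so the ratio over all cells holds cell makeup as well as level. The level within a class is given next.

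In photoreceptor-like cells (rods and cones together), 4 of the 9 genes were at least 1.5-fold higher in ND6, where 18% of 14240 genes were, and 0 were lower, where 4.84% were. *Ldhb* stood at 86.9 CPM in WT and 132 CPM in ND6, a log2 ratio of 0.60 (0.55 to 0.66) that lies close to the 1.5-fold limit and ranged from 0.54 to 0.67 under the alternatives. *Slc16a3* stood at 10.7 and 17.8 CPM, a ratio of 0.74 (0.58 to 0.90). *Slc2a3*, with 42 and 93 UMIs, had a ratio of 1.02 (0.48 to 1.58), and *Slc16a7*, with 5 and 23 UMIs, a ratio of 2.07 (0.65 to 3.82). *Slc16a7* passed the minimum of 20 UMIs only through the ND6 library, so its place in the count carries no weight. Both of these are inner neuron genes in these libraries, at 0.908 and 1.84 CPM for *Slc2a3* and 0.108 and 0.455 CPM for *Slc16a7* in photoreceptor-like cells. Free RNA of *Slc2a3* held 0 UMIs in WT (3 UMIs would be 13.3 CPM) and 8 UMIs, 20.6 CPM, in ND6. These intervals overlapped, and the part of free RNA in the ratio was not tested.

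*Slc16a1*, *Ldha*, *Bsg*, and *Slc2a1* differed by less than 1.5-fold in photoreceptor-like cells. *Slc16a1* went from 256 to 197 CPM, a log2 ratio of −0.38 (−0.41 to −0.34), and *Ldha* from 1134 to 976 CPM, a ratio of −0.22 (−0.23 to −0.20). *Bsg* went from 644 to 839 CPM, a ratio of 0.38 (0.36 to 0.40), and *Slc2a1* from 56.2 to 60.8 CPM, a ratio of 0.11 (0.04 to 0.19). Within the 7 rod-like clusters, ND6 lay below WT in 7 of 7 for *Slc16a1* (−0.52 to −0.27) and *Ldha* (−0.56 to −0.13), and above WT in 7 of 7 for *Bsg* (0.18 to 0.44) and *Ldhb* (0.41 to 0.76). *Slc16a3* was higher in 5 of the 6 clusters with at least 20 UMIs of it. The clusters are parts of the same pair of libraries and are not replicates. Free RNA moved the same way as the rods, from 982 to 588 CPM for *Ldha*, 142 to 208 CPM for *Ldhb*, 778 to 961 CPM for *Bsg*, and 221 to 164 CPM for *Slc16a1*, and its *Ldha* share was 87.4% in WT and 73.9% in ND6. The free RNA intervals of the 2 libraries overlapped for *Ldhb* (32 and 81 UMIs), *Bsg* (176 and 374), and *Slc16a1* (50 and 64), and stayed apart for *Ldha* (222 and 229). The part of free RNA in the rod values was not tested.

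In RPE-like cells, 0 of the 6 genes with at least 20 UMIs passed 1.5-fold in either direction, where 9.52% of 9584 genes were higher and 10.4% lower. The log2 ratio was 0.14 (0.06 to 0.22) for *Slc16a8*, 0.08 (−0.04 to 0.20) for *Slc2a1*, 0.20 (0.16 to 0.25) for *Bsg*, and −0.02 (−0.16 to 0.13) for *Ldha*. *Slc16a1* had a ratio of −0.25 (−0.39 to −0.12) and *Ldhb* a ratio of −0.33 (−0.44 to −0.21). The median of the 6 was 0.03, beside −0.01 over all genes. With free RNA subtracted, 3 genes passed 1.5-fold, *Slc16a8* (2815 and 4391 CPM), *Bsg* (8312 and 12919 CPM), and *Ldha*. *Slc16a1* then turned to 0.20 (995 and 1140 CPM). With the rod-like profile subtracted, only *Ldha* passed and *Slc16a1* was at −0.02. In both subtractions *Ldha* was at 0 CPM in one library, so no ratio could be formed and its place in these counts carries no weight. *Ldhb* stood at 1450 and 1391 CPM with free RNA subtracted and at 1170 and 1041 CPM with the rod-like profile subtracted.

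In Müller-like cells, 2 of 5 genes with enough UMIs were at least 1.5-fold lower, where 17.9% of 8115 genes were, and 0 were higher, where 12.8% were. *Slc16a1* went from 274 to 140 CPM, a log2 ratio of −0.97 (−1.44 to −0.52), and *Ldha* from 975 to 563 CPM, a ratio of −0.79 (−1.02 to −0.57). Under the alternatives, the ratio of *Ldha* ranged from −2.85 (rod-like profile subtracted) to −0.28 (coarser clusters, with 426 and 933 cells), and that of *Slc16a1* from −3.02 (free RNA subtracted) to −0.31. The main sums come from 37 and 94 cells whose median depth differed, so a difference in level cannot be told apart from one in which cells were caught.

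In inner neuron-like cells (bipolar and amacrine), *Slc16a8* was the only one of the 9 past 1.5-fold. Of 12613 genes, 13.8% were higher and 5.22% lower. The log2 ratio of *Slc16a8* was 2.47 (1.18 to 4.14) on 5 WT and 69 ND6 UMIs. *Slc16a8* passed the minimum of UMIs for ratios only through the ND6 library, so its place in the count carries no weight. Of the ND6 UMIs, 55 came from 21 bipolar-like cells, the summed level of the 8 RPE markers in bipolar-like cells was 219.5 CPM in WT and 603 CPM in ND6, and without the highest doublet scores the ratio was 1.18. After subtraction of free RNA, the gene stood at 0 CPM in inner neuron-like cells of both libraries, so no ratio could be formed. *Ldhb* parted between the inner neurons. In bipolar-like cells it went from 58.1 to 105 CPM, a ratio of 0.86 (0.54 to 1.19), although the rod RNA in these cells would bring 64.6% of the WT and 59.6% of the ND6 level, and free RNA subtraction left 0 CPM in both. It went in amacrine-like cells from 696 to 385 CPM, a ratio of −0.85 (−1.02 to −0.69). Beside the latter, rod markers were higher in ND6 (above), and the summed level of 7 ganglion cell markers in amacrine-like cells was 1814 CPM in WT and 764 CPM in ND6. Their part in the ratio was not tested. *Slc2a3* had a ratio of −0.39 (−0.70 to −0.08) and *Slc16a7* a ratio of −0.57 (−1.02 to −0.10) in inner neuron-like cells.

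**Figure D4:**
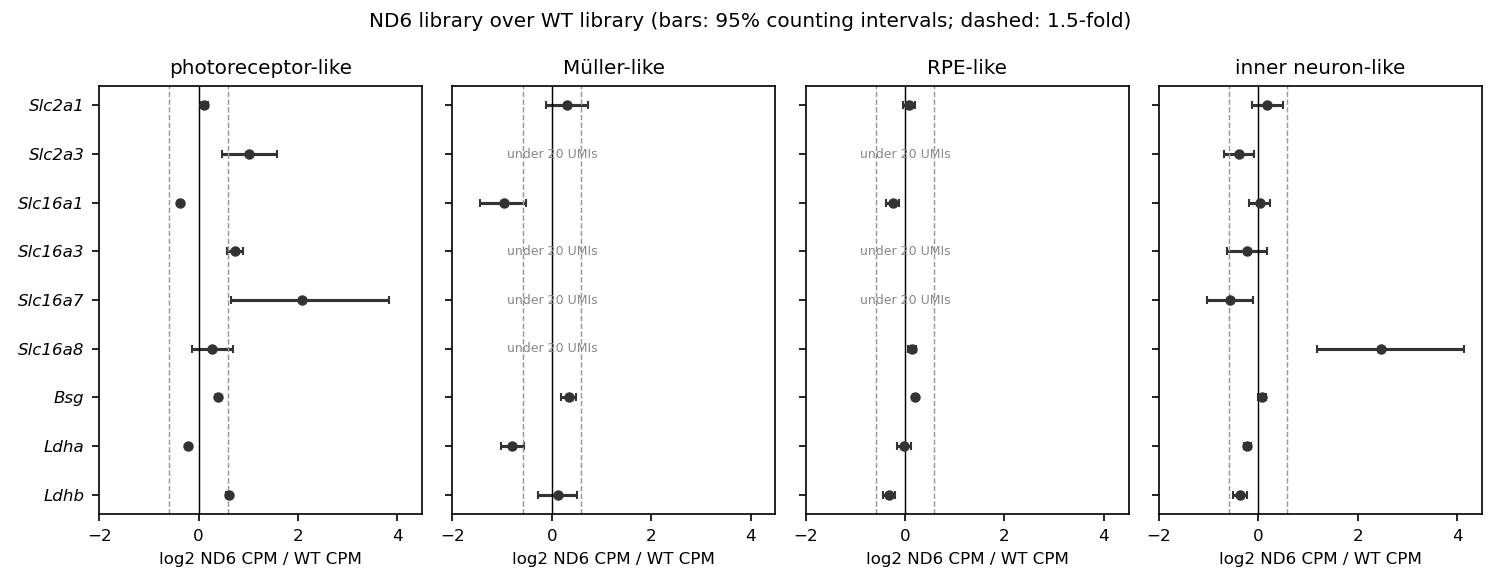
Log2 ratio of ND6 CPM over WT CPM (horizontal) for each gene with at least 20 UMIs in photoreceptor-like, Müller-like, RPE-like, and inner neuron-like cells, with 95% exact conditional intervals (counting error only). Dashed lines mark 1.5-fold, and RPE-like cells have no gene past them.

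The genes whose levels followed each member most closely were sought over the 14 sums of 7 classes in 2 libraries, by Pearson's r of log2(CPM + 1) among 11876 other genes. The points share libraries and rod RNA, and the values are descriptions. *Slc16a8* was most like *Rpe65* (r = 0.990), *Rdh5* (0.985), and *Ptgds* (0.981), all used to name RPE-like cells. *Slc2a1* was most like *Osmr* (0.986), *Perp* (0.981), and *Fbln5* (0.980), and *Bsg* was most like *Adora2b* (0.980), *Fbln5* (0.978), and *Col9a3* (0.975). *Slc2a3* followed *Igsf8* (0.985), *Fyn* (0.975), and *Serp2* (0.972), and *Slc16a7* followed *Inpp4b* (0.967), *Cyth3* (0.930), and *Nrp2* (0.929). *Slc16a1* followed *Slc19a1* (0.965), *Pla2g5* (0.937), and *Rmdn3* (0.924), and *Slc16a3* followed *Evl* (0.915), *Spns1* (0.911), and *Pou2f2* (0.863). *Ldha* followed *Dalrd3* (0.952), *St8sia1* (0.938), and *Ccdc186* (0.936), and *Ldhb* followed *Bad* (0.923), *Rab5c* (0.917), and *Atp1b1* (0.906).

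The wider pathway was read from a list of 44 genes for other glucose and monocarboxylate carriers, carrier partners, other lactate dehydrogenases, the entry of pyruvate into mitochondria, and steps of glycolysis. Of 35 with at least 20 UMIs over all cells, 7 were at least 1.5-fold higher and 3 lower in ND6 (18.6% and 7% of all genes), with a median log2 ratio of 0.23. Among those with at least 50 UMIs were *Slc16a11*, an orphan carrier of the family (1.27, 47 and 131 UMIs), *Emb*, the embigin partner of MCT2 (0.73), *Pdk1*, a kinase that holds back pyruvate dehydrogenase (0.73), *Ldhd*, the D-lactate dehydrogenase (0.91), *Slc2a5*, the fructose carrier (−1.69), and *Slc16a9* (−0.83). Nearly all *Slc2a5* UMIs, 64 of 67 and 23 of 24, came from microglia/macrophage-like cells, which made up 2.02% of WT and 0.756% of ND6 cells, and within that class the ratio was −0.17 (−0.92 to 0.54). Most *Slc16a11* UMIs, 37 of 47 and 109 of 131, came from inner neuron-like cells, 2.47% of WT and 5.09% of ND6 cells. Within that class its ratio was 0.24 (−0.31 to 0.82). *Emb* had a ratio of −0.31 (−0.77 to 0.16) in inner neuron-like cells and 1.03 (0.50 to 1.57) in photoreceptor-like cells.

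RPE-like cells were at least 2-fold above other cells in both libraries for 7 of the 35, among them *Slc2a12*, *Slc16a9*, *Txnip*, and *Mpc1*, where 10.8% of all genes were. *Slc16a9* stood at 196 CPM in WT and 124 CPM in ND6 RPE-like cells, and *Slc2a12*, a glucose carrier, at 30.7 and 33.0 CPM. *Mpc1*, a subunit of the mitochondrial pyruvate carrier, stood at 235 and 229 CPM. Between the libraries, *Hk1* (0.61) and *Hk2* (0.65), the hexokinases, were higher in ND6 RPE-like cells and *Slc16a9* (−0.66) and *Pdk2* (−0.63) lower. *Hk1* stood at 149 and 228 CPM in RPE-like cells, below 342 and 420 CPM in rod-like cells. *Hk2* stood at 169 and 265 CPM, below 466 and 532 CPM in rod-like cells. Rod markers were also higher in these ND6 cells (48.4% against 37.9% of the rod-like level), and their part in these ratios was not tested. Inner neuron-like cells stood out for 10 of the 35 (21.2% of all genes), among them *Slc16a11* at 15.3 and 18.1 CPM, *Slc2a13* at 27.6 and 18.3 CPM, and *Slc5a8*, a sodium-coupled monocarboxylate carrier, at 42.1 and 15.6 CPM. Of these inner neuron UMIs, amacrine-like cells gave 66 of 67 and 105 of 110 for *Slc2a13*. Bipolar-like cells gave 102 of 102 and 91 of 94 for *Slc5a8*.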

How the data were processed

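One WT and 1 ND6 droplet-based 3′ library of retina were used. The authors aligned reads to mm10 with Cell Ranger 3.0.2, per the labels, and deposited raw counts of UMIs per gene and barcode, not normalized. Cells are barcodes that reached 401 UMIs and 201 genes and whose mtDNA-encoded share did not exceed 20%, the study's own limits. The 9 genes, 44 pathway genes, and mtDNA-encoded genes, 66 in all, were left out of the clustering (scanpy 1.11.5, 3000 variable genes, 30 principal components, 20 neighbours, Leiden resolution 1). Clusters were named from marker lists, by a rule settled after the clusters were seen. For classes other than rod-like cells, it asked for at least 20 cells and at least 3 markers raised 2-fold. It also asked for most markers of 1 class among the 10 leading genes. Rod-like clusters were named in a second step. Over all rod-like cells, rod markers stood only 1.25-fold to 1.71-fold above other cells. The rod-like cluster of 778 WT and 1211 ND6 cells, the richest in *Malat1*, had no rod marker among its 10 leading genes. The covariate regression and sample integration of the study were not repeated, and gene and barcode lists were deposited with the matrices as identifiers (unit other). Scrublet's threshold marked 0 WT cells and 1 ND6 cell, so it did not work and doublets were kept.

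UMIs were summed per class and library. Levels have Poisson, shares Clopper-Pearson, and ratios exact conditional 95% intervals, for counting error only. Ratios use genes with at least 20 UMIs. Scripts were tested on simulated data. Named genes are the 9, pathway genes past 1.5-fold with at least 50 UMIs or 2-fold higher in a class in both libraries, and the 3 genes most like each member with at least 200 UMIs, except that *Malat1* was singled out after its values were seen. Members and lists were chosen with earlier results of these data known. The alternatives were other limits on cells, doublet scores, free RNA, scaling, gene filters, and clusterings, and the subtraction of the rod-like profile was added after the data were seen. RefSeq upstream sequences were found for 6 of the 9 genes. Values of 1 pathway gene are not reported here.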

Additional observations from a re-analysis of the deposited data

Results flagged for a closer look

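For 3 genes the ND6 library lay above the WT library in one class of cells and below it in another. *Slc2a3* had a log2 ratio of 1.02 in photoreceptor-like cells and −0.39 in inner neuron-like cells. *Slc16a7* had a ratio of 2.07 in photoreceptor-like cells and −0.57 in inner neuron-like cells. *Ldhb* had a ratio of 0.60 in photoreceptor-like cells, −0.33 in RPE-like cells, and −0.37 in inner neuron-like cells, where bipolar-like cells (0.86) and amacrine-like cells (−0.85) lay on opposite sides. The RPE-like ratio of *Ldhb* ranged from −0.42 to −0.05 under the alternatives, and the part of rod RNA in it was not tested. With 1 library per group, these differences between classes were not tested. For *Slc2a3* and *Slc16a7*, the photoreceptor-like values rest on 42 and 93 and on 5 and 23 UMIs, and *Slc16a7* passed the minimum of 20 UMIs there only through the ND6 library.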

How the results depend on the processing

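Each group has 1 library, so no replicate could be left out. No paired analysis was possible because each group has 1 library and no result comes from a test. Over 1224 recomputed values of single genes and shares, 378 lay outside the counting interval and 2 reversed, and 18 ratios with a level of 0 after a subtraction were left out. *Bsg* in WT photoreceptor-like over other cells went to 0.084 at resolution 2, and *Slc2a1* in ND6 Müller-like over other cells to −0.042 at resolution 0.5. Except where stated, the cause was not tested.

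The number of genes past 1.5-fold over all cells, 2, became 1 without the highest 10% of doublet scores and 5 with the mean of per-cell CPM. In photoreceptor-like cells, 4 became 2 at resolution 2. In Müller-like cells, 2 became 4 with free RNA subtracted, 1 at resolution 0.5 and at resolution 2, and 6 with genes of at least 1 UMI. In RPE-like cells, 0 became 3 with free RNA subtracted, 1 with the rod-like profile subtracted, and 2 with genes of at least 1 UMI. Both subtraction counts include *Ldha*, which was at 0 CPM in one library. In inner neuron-like cells, 1 became 4 with free RNA subtracted, 0 with genes of at least 100 UMIs, and 2 with barcodes of at least 1000 UMIs, per-cell CPM, the median of ratios, or the rod-like profile subtracted. Of the 4, only *Slc2a3*, *Slc16a7*, and *Ldhb* had levels above 0 in both libraries. Genes at least 2-fold higher in Müller-like cells, 2 in WT, became 6 with free RNA subtracted, 5 with the rod-like profile subtracted, 1 at resolution 0.5, and 0 at resolution 2, and 3 in ND6 became 0 at both resolutions. At resolution 0.5 the Müller-like class was a cluster of 426 WT and 933 ND6 cells led by *Glul*, *Bc1*, and *Nefl*. At resolution 2 a cluster of 762 and 854 cells led by *Glul*, *Dbi*, and *Bc1* joined the 37 and 94 cells. Both alternatives thus described mostly other cells. Of the pathway list, 10 called genes became 16 with a lower fold limit and 4 at 2-fold.

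The *Ldha* share of photoreceptor-like minus RPE-like cells, 54.9 points in WT and 44.9 in ND6, kept its sign throughout. In WT it was 57.4 with a limit of 10% on mtDNA-encoded UMIs, 74.0 without the highest doublet scores, 92.9 with free RNA subtracted, 88.9 with the rod-like profile subtracted, and 52.5 at resolution 2. In ND6 it was 40.7 with at least 1000 UMIs, 69.2 without the highest doublet scores, 74.9 and 88.0 after the 2 subtractions, and 41.5 at resolution 2. The class with the highest level stayed as reported for at least 8 of 9 genes in both libraries. Depth limits *Slc2a3* and *Slc16a7* outside inner neurons, and *Slc16a3* in Müller-like and RPE-like cells, where sums held few UMIs. In photoreceptor-like cells *Slc16a3* had 494 UMIs in WT and 901 in ND6.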

Other observations

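The *Ldha* share was also formed for blood cells and the unnamed cluster, which belonged to none of the 7 classes at the main clustering. The unnamed cluster led by *Bc1*, *Nefl*, and *Glul* had an *Ldha* share of 87.7% (86.3 to 89.1, Clopper-Pearson) in WT and 80.9% (79.5 to 82.2) in ND6, with rod markers at 91.9% and 74.5% of their rod-like level. Blood cells had 86.7% (82.9 to 89.9) and 82.1% (78.9 to 85.1), with rod markers at 86.3% and 95.4%. These values were not used in any comparison.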
